A study of Homo sapiens with 28 samples.

Results

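The 10 surface receptor genes of plasma cells described here include several that encode targets of antibodies or engineered T cells used against myeloma. They are TNFRSF17, TNFRSF13B, SLAMF7, CD48, CD38, SDC1, FCRL5, GPRC5D, CD28 and ITGB7. The genes were chosen by name with earlier results of these data known, so counts among them set beside all genes are a description. Every probe set whose single gene symbol in the platform annotation is one of them was taken. This gave 20 of the 54675 probe sets on the array, and 10 of the 19775 genes with a name. All 10 genes passed the filter on dim probe sets and were among the 15448 genes tested.

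RNA was measured on 28 Affymetrix arrays in 4 established human myeloma lines, U266, MM.1s, KMS11 and 8226/S. Each line has 2 untreated arrays taken at 0 h, control 1 and control 2, and 1 array for each treatment, with no array of untreated cells at a later time. Arsenic trioxide (ATO), an inorganic arsenical, was given at 2 µM for 6, 24 or 48 h. DAR, which stands for darinaparsin, an organic arsenical, was given for 6 or 24 h, and its dose depended on the line. 8226/S received 2 µM of it, KMS11 and MM.1s received 3 µM, and U266 received 4 µM. All lines grew in the same serum-supplemented medium, and each is a cell line rather than tumour cells in their marrow setting. The labels do not say that arrays came from separate cultures, so p-values measure only the spread between these arrays. In RNA from bulk cells, fewer cells of a kind and less RNA per cell cannot be told apart.

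Plasma cells secrete antibody, and their long life depends on signals received through surface receptors. TNFRSF17 (BCMA) and TNFRSF13B (TACI) bind the ligands APRIL and BAFF and signal to NF-kB through TRAF adaptors. SLAMF7 and CD48 belong to the SLAM family of adhesion receptors, by which lymphocytes and natural killer cells sense each other. CD38 is an ectoenzyme that consumes NAD, SDC1 (syndecan-1, CD138) is a heparan sulfate proteoglycan that gathers growth factors at the surface, and FCRL5 and GPRC5D are an Fc receptor-like protein and an orphan G protein-coupled receptor found on plasma cells. CD28 is the costimulatory receptor first known from T cells, and ITGB7 is the beta 7 integrin chain, which pairs with ITGA4 or ITGAE in homing and adhesion.

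Values are scaled probe set intensities, and a gene with several probe sets is represented by the brightest. A level is an intensity on 1 array, and levels are compared only for the same probe set. A change is the difference in log2(intensity + 29) between a treated array and the control of its line, control 2 for ATO and control 1 for DAR. Mean changes over the 4 lines come from limma with a standard error (SE) taken from the residual spread pooled over treatments. This SE does not measure the spread of the 4 line changes in 1 treatment, which can be larger. A gene is called where the adjusted p, by Benjamini-Hochberg over all genes, is under 0.05, and the words rose and fell are kept for called genes. The offset of 29 makes a fold change smaller than the plain ratio for dim genes.

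The arrays fall into 2 sets by their values. The median intensity lay between 65.5 and 109 on the 12 arrays of control 1 and DAR, and between 111 and 147 on the 16 arrays of control 2 and ATO. All 20 treated arrays were nearer the control that serves them here than the other control of the line. The array of 8226/S after 6 h of DAR had the highest median of its set, at 109, and the highest top intensity of the 28 arrays, so results were also computed without it. Centring arrays on their median shifted the split of called genes from 989 higher and 848 lower to 492 and 925 after 48 h of ATO, and from 423 and 354 to 225 and 276 after 24 h. The split went from 1059 and 984 to 692 and 1161 after 6 h of DAR, and from 76 and 20 to 41 and 33 after 24 h of DAR. Of 8 plasma cell markers, SDC1, TNFRSF17 and the transcriptional regulators PRDM1, IRF4, XBP1 and POU2AF1 were above the array median on 28 of 28 arrays, MZB1, a co-chaperone of the endoplasmic reticulum, on 26 and CD38 on 17. Of the B cell markers CD22 was above it on 27, CR2 on 21, PAX5 on 10 and MS4A1 on 7. Of T and NK cell markers CD2 was above it on 20 arrays, CD3E on 15, CD3D on 2, and CD3G and NKG7 on 0. Of myeloid markers CSF1R and MPO were above it on 11, LYZ on 3 and CD14 on 0, and of fibroblast and endothelial markers PECAM1 on 28, COL1A1 on 22, COL1A2 on 20 and VWF on 4.

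After 6 h of ATO, CD48 and TNFRSF17 fell, and 8 of the 10 genes did not pass the test. At this time 2.67% of all genes were called lower and 3.75% higher. The same 2 genes were called after 24 h, when 2.29% of genes were lower and 2.74% higher. After 48 h 4 of the 10 fell, TNFRSF17, CD48, SDC1 and GPRC5D, against 5.49% of genes lower and 6.4% higher. None of the 10 was called higher after ATO at any time. The median change of the 10 was -0.32, -0.58 and -0.55 at 6, 24 and 48 h, where that of all genes tested was 0.00, 0.02 and 0.06. With DAR 1 of the 10 rose at 6 h, SLAMF7, against 6.86% of genes higher, and the medians were 0.02 for the 10 and 0.02 for all genes. After 24 h of DAR limma called 0 of the 10 and 0.621% of all genes. An unadjusted p under 0.05 was found for 2 of the 10 and for 2270 of all genes. No other tool was run.

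**Figure D1:**
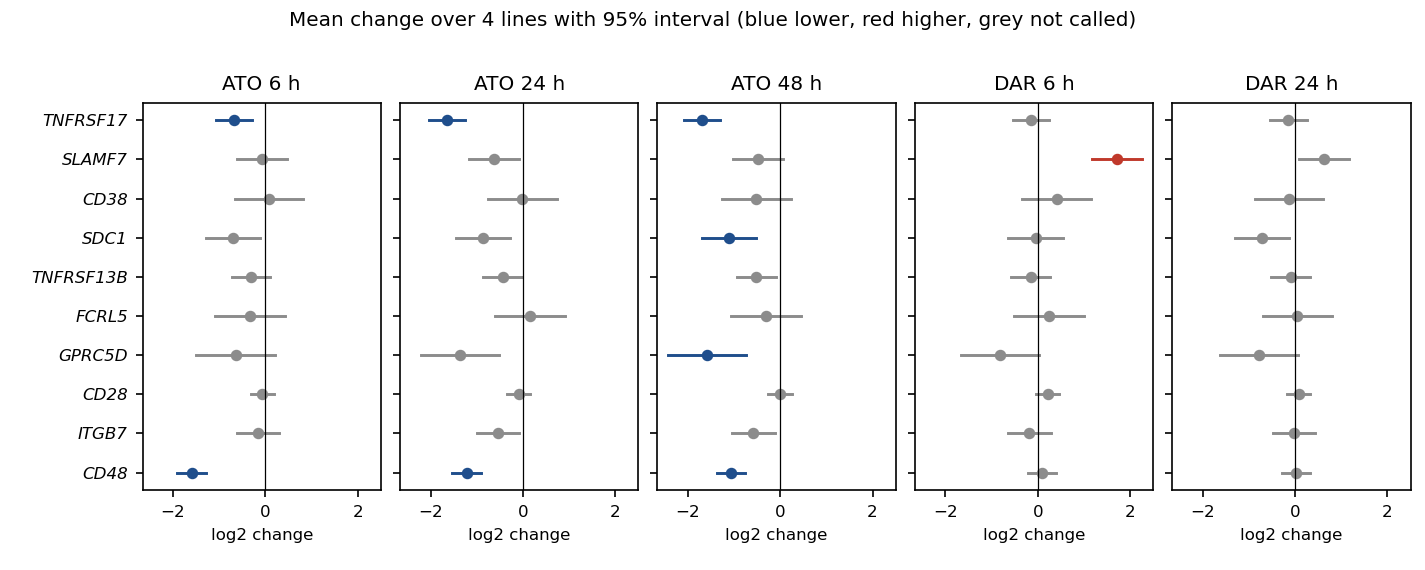
Mean log2 change over the 4 lines (horizontal axis) of each of the 10 genes (vertical axis) after each treatment, with the 95% interval from limma; blue points were called lower, red higher and grey points were not called. CD48 and TNFRSF17 are lower at all 3 times of ATO, SDC1 and GPRC5D are called lower after 48 h, and SLAMF7 alone is called higher, after 6 h of DAR.

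TNFRSF17, the receptor gene for BCMA, was at 12934 in control 2 of U266 and at 7798, 6871 and 3583 after 6, 24 and 48 h of ATO. In MM.1s it went from 16473 to 8457, 4957 and 5462. In KMS11 it went from 7288 to 4942, 1395 and 1444. The lowest levels were those of 8226/S, at 1454 before and 1022, 469 and 681 after ATO. Every ATO array was below the control 2 of its line, while levels of treated and untreated arrays overlapped across lines. TNFRSF17 fell by 0.69 ± 0.19 (SE, n = 4 lines) at 6 h, with adjusted p = 0.0294 by limma. Its change was -1.64 at 24 h (adjusted p = 1.13e-05) and -1.70 at 48 h (adjusted p = 4.59e-06), or 3.25-fold lower. The difference between 24 and 6 h was -0.96 (adjusted p = 0.0199), where 0.311% of genes were called lower between these times. From 24 to 48 h the change was -0.06, with a 95% interval of -0.45 to 0.33, and 0% of genes and none of the 10 were called by limma. At an unadjusted p under 0.05 stood 990 of all genes and 0 of the 10. The 6 h call was lost with median centring, without U266, without MM.1s and without 8226/S, and the difference between 6 and 24 h was lost without MM.1s, without KMS11 and without 8226/S. The 24 h and 48 h calls remained without each line in turn.

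With DAR the TNFRSF17 levels stayed close to control 1. U266 had 26134 in control 1, 23619 at 6 h and 20934 at 24 h. MM.1s had 24098, 24740 and 24735. KMS11 had 16602, 14563 and 17356, and 8226/S had 2794, 2348 and 2170. The mean change was -0.14 at 6 h, with a 95% interval of -0.53 to 0.26, and -0.14 at 24 h, with an interval of -0.54 to 0.25. The mean over the times was -1.16 with ATO and -0.23 with DAR in U266, -1.42 and 0.04 in MM.1s, -1.74 and -0.06 in KMS11, and -1.05 and -0.30 in 8226/S. Doses of the agents differ in 3 of the 4 lines, times differ as well, and the difference between agents was not tested.

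TNFRSF13B, which encodes TACI, had smaller mean changes with ATO than TNFRSF17. Its ATO levels went from 246 in control 2 of U266 to 227, 157 and 115, and from 736 in KMS11 to 555, 481 and 408. MM.1s went from 1149 to 648, 819 and 868. In 8226/S the levels were 606 before and 630, 551 and 624 after. The first 3 lines lay below control 2 at each time, and 8226/S did so at 24 h. The mean change of TNFRSF13B at 48 h was -0.52 and was not called (adjusted p = 0.102). With DAR the changes ran from -0.66 in U266 to 0.50 in KMS11 at 6 h, with lines on both sides of 0.

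Of 10 tested genes in a list of 12 that act with BCMA and TACI, the ligands, TRAF adaptors and NF-kB subunits, 1 rose at each time of ATO and 2 rose after 6 h of DAR. TRAF6, an adaptor of these receptors, was that gene, with changes of 0.93, 0.78 and 0.84 at 6, 24 and 48 h of ATO. TRAF6 also rose after 6 h of DAR by 0.87 and RELB, a subunit of the alternative NF-kB pathway, by 1.05 (adjusted p = 0.00168). None of the list fell, and no gene of it was called after 24 h of DAR. Shares of all genes called higher were 3.75%, 2.74% and 6.4% at 6, 24 and 48 h of ATO. After 6 h of DAR that share was 6.86%. Among 5 tested subunits of gamma-secretase, the protease that sheds BCMA from the membrane, 0 were called in any treatment, and the list's median change lay between -0.16 and 0.10.

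SLAMF7, the target of the antibody elotuzumab, rose after 6 h of DAR in each line. In U266 it was at 2596 in control 1, 12337 at 6 h and 5691 at 24 h. In MM.1s it was at 15301, 25122 and 13267. In KMS11 it went from 4088 to 12345 and back to 3925. In 8226/S it was at 30.6 in control 1, below the array median of 77.3, then at 281 and 152, and those DAR arrays were the only 2 of the 7 arrays of 8226/S above their median. Each 6 h array was thus above the control of its line, and the lines are so far apart that the groups overlapped across lines. The mean change at 6 h was 1.73 ± 0.26 (SE, n = 4 lines), or 3.31-fold, with adjusted p = 0.000100 by limma. It was 0.62 at 24 h (adjusted p = 0.269), and the difference between 24 h and 6 h was -1.11 (adjusted p = 0.00921), against 3.66% of genes called lower between these times. The 6 h call remained without each line and, at 1.68, without the 8226/S array named above. The call between times was lost without KMS11.

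All 3 probe sets of SLAMF7 gave the call at 6 h when each probe set was tested by itself. The mean change was 2.34 for 219159_s_at, 1.73 for 222838_at and 1.67 for 234306_s_at, while 6.62% of the 29667 probe sets tested were called higher. On 219159_s_at U266 went from 789 to 6310, MM.1s from 6977 to 20285, KMS11 from 2009 to 7252 and 8226/S from 18.6 to 358. On 234306_s_at the step in 8226/S was small, from 77.9 to 111, and the other lines went from 423 to 2858, from 3603 to 10352 and from 819 to 3634.

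After ATO, SLAMF7 was not called at any time. In U266 it was at 1134 in control 2 and at 2123, 1159 and 2007 after ATO. In MM.1s it went from 8998 to 7126, 4842 and 5432, in KMS11 from 1788 to 1506, 989 and 1030, and in 8226/S from 102 to 57.6, 46.3 and 26.2. On this probe set U266 was above its control at each time and the other 3 lines below theirs. All of these 8226/S levels were below their array median. On 219159_s_at 8226/S was above control at 6 h and 48 h, by 0.77 and 0.79, and U266 was at -0.06 at 24 h. On 234306_s_at U266 was at -0.15 and 8226/S at 0.13 at 24 h. The mean change at 48 h was -0.49 (adjusted p = 0.266), and without U266 it was -0.92 and was called. That value takes in the change of -1.24 in 8226/S, which lies within dim signal.

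CD48, the ligand of CD2 and CD244 on lymphocytes, had its largest drop early. In U266 it was at 10310 in control 2 and at 5042, 6522 and 7251 after 6, 24 and 48 h of ATO. In MM.1s it went from 16859 to 3904, 4869 and 5434. In KMS11 it went from 6932 to 1634, 2724 and 3093. In 8226/S, the line with least CD48, it went from 841 to 352, 379 and 415. All 12 ATO arrays lay below the control 2 of their line, and in each line the lowest level was that at 6 h. CD48 fell by 1.60 ± 0.15 (SE, n = 4 lines) at 6 h, or 3.03-fold (adjusted p = 3.27e-07 by limma). Its change was -1.22 at 24 h (adjusted p = 2.56e-05) and -1.07 at 48 h (adjusted p = 7.80e-05). The difference between 24 and 6 h was 0.38 and was not called (adjusted p = 0.322). These 3 calls remained without each line in turn. The dimmer probe set 237759_at was not called, with changes of -0.34, -0.52 and -0.50. These means take in dim signal, as 237759_at was above the array median on 0 of 7 arrays in 8226/S and 5 of 7 in KMS11. Its changes at 6 h were -0.07 in U266, -0.74 in MM.1s, -1.05 in KMS11 and 0.49 in 8226/S.

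With DAR, CD48 changed little. U266 had 11702 in control 1, 12942 at 6 h and 12742 at 24 h. MM.1s had 13258, 15204 and 11536, KMS11 had 8269, 8106 and 7531, and 8226/S had 339, 351 and 419. The mean change of CD48 was 0.09 at 6 h, with a 95% interval of -0.22 to 0.40, and 0.02 at 24 h, with an interval of -0.29 to 0.33. The mean over times of CD48 in MM.1s was -1.84 with ATO and 0.00 with DAR at other doses, and the difference between agents was not tested.

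SLAMF7 and CD48 lie on chromosome 1 with 1 protein-coding gene between them, and their changes over the 20 treated arrays had a Pearson r of 0.73, the highest among pairs of the 10 genes. The arrays share lines and controls, so this value is a description. Among 7 tested genes of the SLAM family, its adaptors and CD2 ligands, limma called 0 after ATO at each time. After 6 h of DAR 1 of the 7 rose, against 6.86% of all genes. That gene was CD58, another ligand of CD2, with a change of 0.81 (adjusted p = 0.00662).

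**Figure D2:**
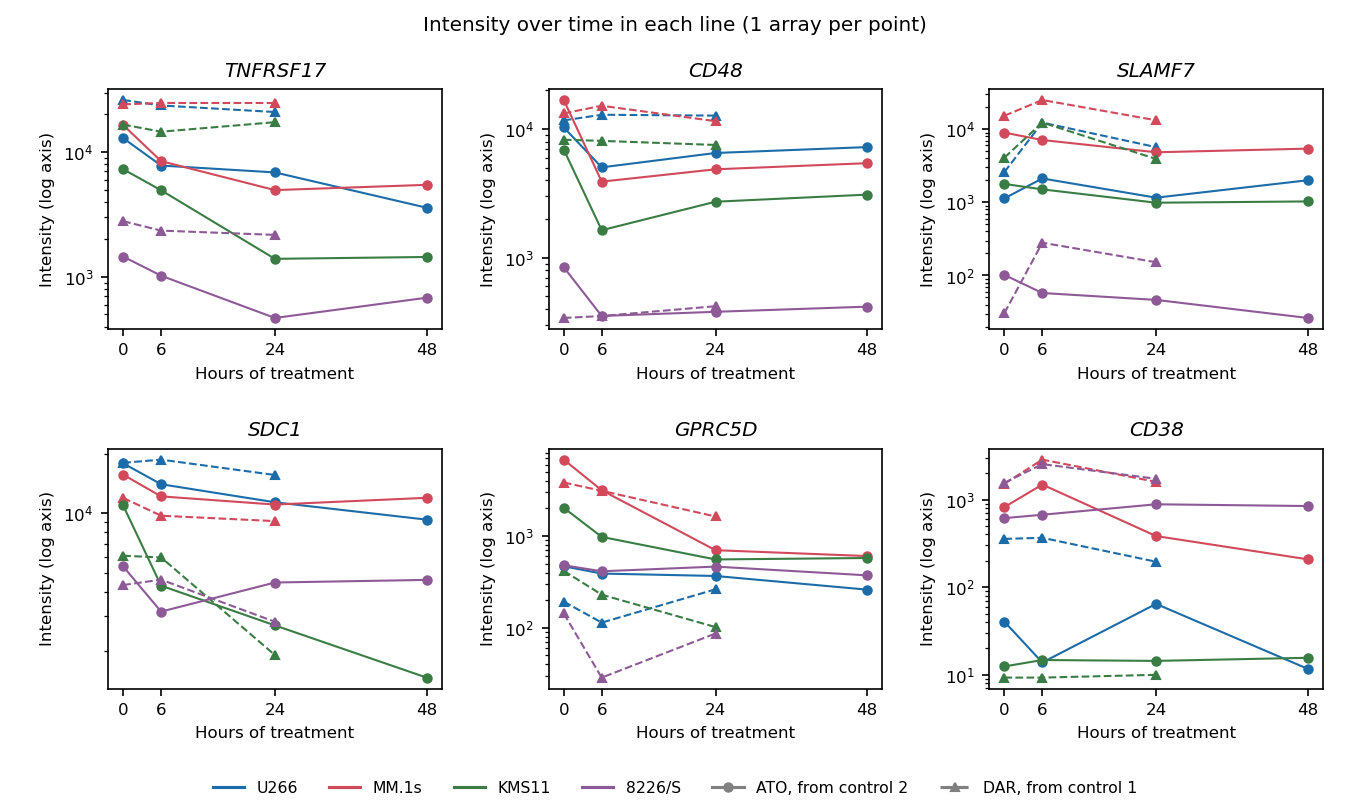
Intensity on a log axis against hours of treatment for 6 of the genes in each line, 1 array per point, with ATO drawn from control 2 (solid lines, circles) and DAR from control 1 (dashed lines, triangles). CD48 drops by 6 h of ATO in the 4 lines and TNFRSF17 is lower still at 24 h, whereas SLAMF7 peaks at 6 h of DAR, at 12337 in U266.

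SDC1, the gene of CD138, by which plasma cells are commonly sorted, fell after 48 h of ATO. In KMS11 it went from 10923 in control 2 to 4288, 2700 and 1469. In U266 it went from 17852 to 13995, 11339 and 9261. In MM.1s it went from 15644 to 12146, 11042 and 11945, and in 8226/S from 5367 to 3170, 4451 and 4588. All 12 arrays were below the control of their line, and KMS11 lay apart at 48 h with a change of -2.87 against -0.94 to -0.22 in the other lines. The mean change of SDC1 was -0.70 at 6 h (adjusted p = 0.161), -0.86 at 24 h (adjusted p = 0.0846) and -1.11 ± 0.28 (SE, n = 4 lines) at 48 h (adjusted p = 0.0125 by limma). That SE is pooled over treatments, and the standard deviation of the 4 line changes at 48 h was 1.21. Without KMS11 the 48 h change was -0.52 and the call was lost, and it was also lost without U266. The second probe set, 201286_at, was called at 24 h as well, at -1.32 (adjusted p = 0.0300), where 1.97% of probe sets were called lower, and at 48 h at -1.61, where 5.01% were called lower. On 201286_at KMS11 went from 5204 to 1198, 669 and 319, and 8226/S from 1745 to 1226, 1280 and 1641.

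With DAR, SDC1 was near control 1 at 6 h and lower in each line at 24 h. KMS11 had 6080 in control 1, 5961 at 6 h and 1911 at 24 h. In U266 the levels were 17961, 18638 and 15586, in MM.1s 11936, 9695 and 9104, and in 8226/S 4321, 4602 and 2816. The mean change at 24 h was -0.72 and was not called (adjusted p = 0.240). Of 9 tested genes of the syndecan family and of heparan sulfate synthesis and shedding, 1 fell after 48 h of ATO and 1 rose after 6 h of DAR. The first was HPSE, the heparanase that trims syndecan chains, at -0.99 (adjusted p = 0.0381), and the second ADAM17, a sheddase of surface proteins, at 0.75 (adjusted p = 0.00123). The matching shares of all genes were 5.49% and 6.86%.

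GPRC5D, a target of bispecific antibodies, had changes that differed in size between the single arrays of the lines. A line difference in its response, over both agents, was not called (adjusted p = 0.687 by limma's F test). In MM.1s it went from 6800 in control 2 to 3154, 701 and 605 with ATO. In KMS11 it went from 2029 to 979, 556 and 576. In U266 it went from 468 to 390, 367 and 260, and in 8226/S from 480 to 413, 464 and 373. All 12 arrays lay below their control, and the changes at 48 h were -3.43 in MM.1s, -1.77 in KMS11, -0.78 in U266 and -0.34 in 8226/S. The mean change was -1.35 at 24 h (adjusted p = 0.0572), not called, and -1.58 ± 0.41 (SE, n = 4 lines) at 48 h (adjusted p = 0.0134 by limma). That SE is pooled over treatments, and the standard deviation of the 4 line changes at 48 h was 1.37. The 48 h call was lost without MM.1s, where the change was -0.96, and without KMS11. It was also lost with the 2 controls of a line pooled, where it was -0.86.

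With DAR, GPRC5D was at 3829 in control 1 of MM.1s, 3111 at 6 h and 1633 at 24 h. It was at 417, 230 and 102 in KMS11, at 193, 114 and 263 in U266, and at 143, 28.7 and 86.7 in 8226/S. The 4 lines were below control at 6 h and 3 of 4 at 24 h. Both DAR levels of 8226/S were below their array median. Its 6 h change, -1.58, was the largest at that time and is from the array with the highest median of its set. Neither mean change, -0.82 and -0.79, was called. Of 5 tested genes of the Fc receptor-like and GPRC5 families limma called 0 in any treatment.

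Bases before the transcription start are shown for genes that fell after 48 h of ATO and matched the RefSeq promoter table of GRCh38.p14. Of the 10 genes 8 matched, all except TNFRSF17 and SLAMF7. Each run holds the 250 bases before the start, read 5′ to 3′ on the strand of the gene, with capitals for a match to 1 of the 4 motifs searched on both strands. CD48 lies on the minus strand (chr1:160711823-160712072), GPRC5D on the minus strand (chr12:12952171-12952420) and SDC1 on the minus strand (chr2:20225476-20225725).
CD48: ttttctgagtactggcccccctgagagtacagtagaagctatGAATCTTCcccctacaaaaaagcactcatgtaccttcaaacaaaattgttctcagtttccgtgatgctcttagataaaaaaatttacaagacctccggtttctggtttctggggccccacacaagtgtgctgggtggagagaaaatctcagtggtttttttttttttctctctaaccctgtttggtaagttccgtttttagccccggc
GPRC5D: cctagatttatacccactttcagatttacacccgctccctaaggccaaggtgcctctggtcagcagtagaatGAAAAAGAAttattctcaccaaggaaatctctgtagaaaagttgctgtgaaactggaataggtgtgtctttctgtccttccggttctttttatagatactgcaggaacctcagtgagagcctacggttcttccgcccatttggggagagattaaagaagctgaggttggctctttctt
SDC1: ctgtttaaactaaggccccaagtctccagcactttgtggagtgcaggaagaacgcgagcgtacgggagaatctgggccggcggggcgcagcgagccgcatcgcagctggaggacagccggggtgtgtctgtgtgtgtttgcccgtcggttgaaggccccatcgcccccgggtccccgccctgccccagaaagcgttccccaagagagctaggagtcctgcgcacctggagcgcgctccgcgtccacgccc
The capitals in CD48 mark GAATCTTC, a match to the heat-shock-like letters GAANNTTC that starts 208 bases before the start, and 5.85% of 27305 promoters of this length hold such a match. Those in GPRC5D mark GAAAAAGAA, a match to the interferon-response-like letters GAAANNGAA, held by 7.06% of promoters, and CD38 has a match to the same letters. The octamer ATGCAAAT, held by 1.66%, and the NRF2 and MAF-like letters TGACNNNGC, held by 11%, had no match in the 8 windows. A match to the letters is a description of the window only.

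CD38, the target of daratumumab, followed no common course. In MM.1s it was at 820 in control 2 and at 1482, 383 and 208 after ATO. In 8226/S it was at 614 and then 671, 883 and 843. In U266 it was at 40.5 and then 13.8, 64.5 and 11.7, all below the array median, so its ATO changes in this line lie within dim signal. In KMS11 it was below the array median on 7 of 7 arrays, between 9.3 and 15.7. The lines moved in opposite directions, with changes at 48 h from -1.84 in MM.1s to 0.44 in 8226/S. With DAR MM.1s went from 1513 to 2853 and 1590, 8226/S from 1551 to 2536 and 1724, and U266 from 356 to 366 and 195. The mean change of CD38 was 0.41 after 6 h of DAR (adjusted p = 0.528), with a 95% interval of -0.33 to 1.15. Of 6 tested NAD ectoenzymes and complement inhibitors 1 fell at 6 h and at 24 h of ATO, the complement inhibitor CD46, with changes of -0.46 and -0.40. The matching shares of all genes were 2.67% and 2.29%.

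FCRL5 had signal on 1 of its 5 probe sets. On 224406_s_at U266 had 1257 in control 2 and 1195, 1256 and 1156 after ATO, and 1054 in control 1 with 879 and 1281 after DAR. The other lines lay between 20.7 and 383 on this probe set over all arrays. In KMS11 the levels were 284 in control 2 and 247, 290 and 50.1 after ATO. Of the other probe sets, 3 were above the array median on 0 of 28 arrays and 224404_s_at on 3. No change of FCRL5 was called.

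CD28 stayed near its control with ATO, with a mean change of -0.01 at 48 h and a 95% interval of -0.26 to 0.25. In U266 its levels were 7572 in control 2 and 8168, 8827 and 7199 after ATO. In MM.1s they were 5872, 6160, 6479 and 6435, in KMS11 4387, 3581, 3329 and 3348, and in 8226/S 3312, 2967, 2667 and 4093. After 6 h of DAR the brightest probe set, 206545_at, was not called, with a change of 0.22. The other 2 probe sets rose, 211861_x_at by 0.60 (adjusted p = 0.00289) and 211856_x_at by 0.54 (adjusted p = 0.00521). On 211861_x_at the levels went from 6090 to 6904 in U266, from 2416 to 3982 in MM.1s, from 1664 to 2386 in KMS11 and from 1725 to 3418 in 8226/S, and at 24 h of DAR they were 4991, 2488, 1466 and 1706. The probe sets of CD28 thus disagree on the call. Of 6 tested genes of CD28 costimulation, VAV1, a signal transducer below CD28, fell at 6 h and 48 h of ATO, with changes of -0.69 and -0.52. The CD28 ligand gene CD86 rose by 1.22 at 48 h of ATO (adjusted p = 0.00114), and CD80, its other ligand, rose by 0.96 after 6 h of DAR (adjusted p = 0.0129). Of all genes 2.67% were lower at 6 h of ATO, and 5.49% lower and 6.4% higher at 48 h. After 6 h of DAR 6.86% were higher.

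ITGB7 was lower with time in U266, from 2328 in control 2 to 1832, 1084 and 598 with ATO. In KMS11 it went from 22136 to 19113, 13559 and 14661, in MM.1s from 32819 to 32985, 28181 and 28056, and in 8226/S from 16224 to 15060, 14763 and 21528. At 48 h 3 lines were below control and 8226/S above it. The mean change was -0.58 (adjusted p = 0.0926), not called, and without 8226/S it was -0.91 and was called. With DAR its changes ran from -0.36 to 0.03 at 6 h and from -0.30 to 0.49 at 24 h. Its partner ITGA4, the alpha 4 integrin chain, fell at the 3 times of ATO, with changes of -1.09, -1.17 and -1.14, and was lower in each line. Of 8 tested integrin and adhesion genes, ITGAL also fell at 6 h, at -0.56, and ITGAE, the other partner of ITGB7, at 48 h, at -0.75. After 6 h of DAR 3 of these 8 rose, CDH1 by 1.66, ICAM1 by 0.96 and CD44 by 0.77, against 6.86% of all genes. At 6, 24 and 48 h of ATO 2.67%, 2.29% and 5.49% of all genes were called lower.

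Among 16 other tested surface antigens of myeloma, 1 fell after 6 h of ATO, 3 after 24 h and 1 after 48 h, and 2 rose at 48 h. Of all genes 2.67%, 2.29% and 5.49% were lower at these times, and 6.4% were higher at 48 h. The chemokine receptor CCR1 fell at 6 and 24 h, with changes of -0.89 and -0.78. CCR10 fell by 1.34 at 24 h, and LAX1, a membrane adaptor, fell at 24 and 48 h, with changes of -0.68 and -0.71. NCAM1 and IGF1R rose at 48 h by 0.71 and 0.47. After 6 h of DAR CD70, the ligand of CD27, rose by 1.68 (adjusted p = 0.000459), CCR1 by 0.63 and CD47, the signal that inhibits phagocytosis, by 0.38. The share of all genes called higher there was 6.86%. No gene of these lists was called after 24 h of DAR.

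**Figure D3:**
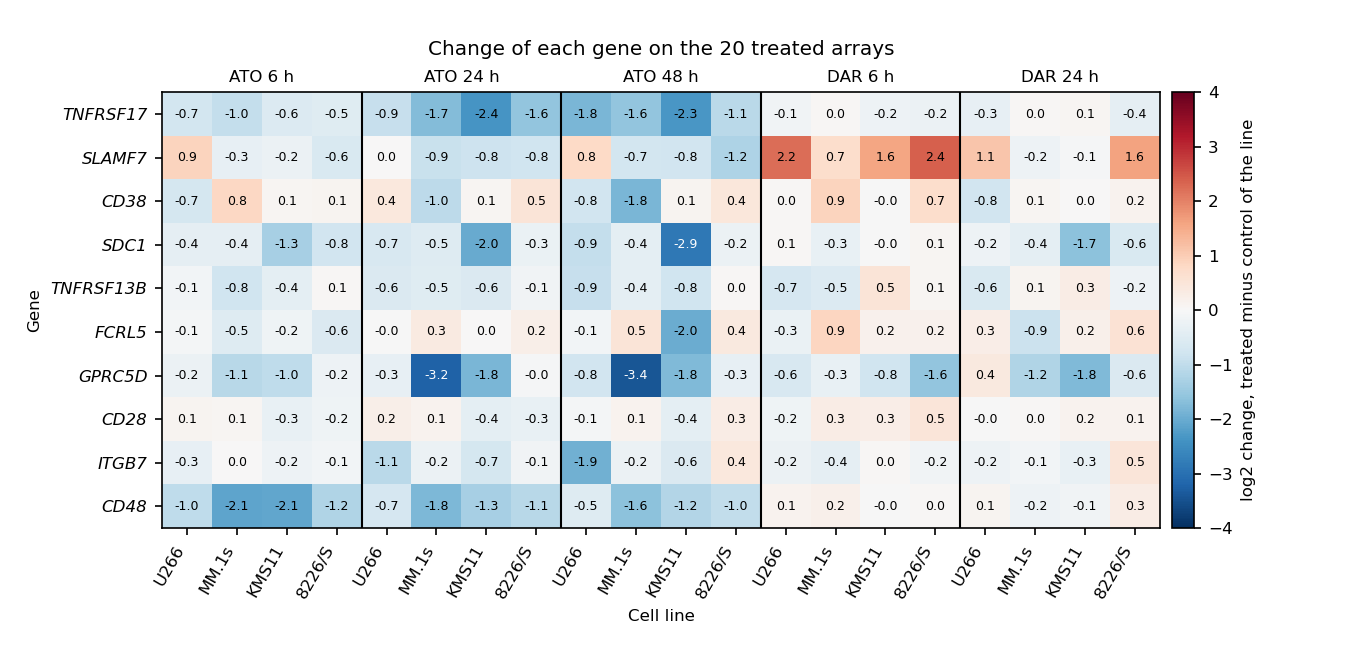
Log2 change of each gene (rows) on each of the 20 treated arrays (columns, grouped by treatment, 4 lines each), red for higher and blue for lower than the control of the line. CD48 and TNFRSF17 are below control on all 12 ATO arrays, and GPRC5D ranges from -3.43 in MM.1s to -0.34 in 8226/S at 48 h.

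The effect of arsenic was also compared between lines, with ATO and DAR arrays in 1 term. Limma called 0 of the 10 genes for a line difference in response, against 0.0518% of all genes, and 3 of the 10 and 1303 of all genes had an unadjusted p under 0.05. The lowest adjusted p among the 10 was that of SLAMF7, at 0.356, and that of GPRC5D was 0.687. With ATO the SLAMF7 mean over times was 0.58 in U266 and between -0.88 and -0.62 in the other lines, where 8226/S was below the array median. With DAR it was 1.68 in U266, 0.25 in MM.1s, 0.76 in KMS11 and 1.99 in 8226/S.

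Before treatment, 8 of the 10 genes differed between lines by limma's F test, against 16.9% of all genes. TNFRSF13B (adjusted p = 0.0536) and FCRL5 (adjusted p = 0.112) were not called. The spread in that test is that between the 2 controls of a line. With median centring the calls of TNFRSF17, SDC1 and CD28 were lost and that of FCRL5 gained, which gave 6. Without 8226/S 4 were called, with TNFRSF17, SDC1, CD28 and CD48 lost, and without U266 5, with SDC1, CD28 and ITGB7 lost. With the control number as a block all 10 were called, against 52% of all genes. The pairs of lines below are from that fit, in which 45 of the 60 pairs over the 10 genes were called, and 23 of these 45 were called without the block. Between pairs of lines it called 29.3% of genes for U266 against MM.1s, 31.5% for U266 against KMS11 and 36.1% for U266 against 8226/S. It called 21.1% for MM.1s against KMS11, 28.1% for MM.1s against 8226/S and 26% for KMS11 against 8226/S.

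SLAMF7 was at 15301 and 8998 in the controls of MM.1s and at 30.6 and 102 in those of 8226/S, which are below their array medians of 77.3 and 124. With those medians as the floor, probe set 222838_at was at least 92.3-fold higher in MM.1s on the log2(intensity + 29) scale (adjusted p = 3.71e-06 for the measured values). That bound holds for this probe set only. The measured mean log2 levels in MM.1s and 8226/S were 12.54 and 5.80 on 219159_s_at, and 11.75 and 6.28 on 234306_s_at. For SLAMF7 on 222838_at the order of lines follows. Its order was MM.1s, KMS11, U266 and 8226/S, and KMS11 and U266 did not differ beyond their spread (adjusted p = 0.321). Without the block MM.1s and KMS11 were not called apart in SLAMF7 (adjusted p = 0.113). CD48 was highest in MM.1s, followed by U266 and KMS11, and was higher in KMS11 than in 8226/S by 3.75 (adjusted p = 1.41e-05). U266 differed in CD48 from neither MM.1s (adjusted p = 0.307) nor KMS11 (adjusted p = 0.202), and without the block MM.1s and KMS11 were not apart (adjusted p = 0.289). TNFRSF17 was similar in MM.1s and U266, with U266 minus MM.1s at -0.12 (adjusted p = 0.649), lower in KMS11 and lowest in 8226/S, with a difference of 2.43 between KMS11 and 8226/S (adjusted p = 4.81e-06). Without the block KMS11 was called apart in TNFRSF17 from neither U266 (adjusted p = 0.501) nor MM.1s (adjusted p = 0.554). CD38 was high in MM.1s and 8226/S, which did not differ beyond their spread (adjusted p = 0.847), and below the array median in KMS11. It was lower in U266, where control 2 was below the array median. Without the block U266 was called apart in CD38 from none of MM.1s (adjusted p = 0.0798), 8226/S (adjusted p = 0.0754) and KMS11 (adjusted p = 0.188).

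GPRC5D was highest in MM.1s, by 2.42 over KMS11 (adjusted p = 0.000353, and 0.182 without the block), and U266 and 8226/S did not differ beyond their spread (adjusted p = 0.722). ITGB7 was lowest in U266, with U266 minus 8226/S at -2.49 (adjusted p = 6.74e-06), and highest in MM.1s. Without the block MM.1s was not called apart from KMS11 in ITGB7 (adjusted p = 0.162). SDC1 ran from U266 through MM.1s and KMS11 to 8226/S, with U266 and MM.1s not apart (adjusted p = 0.139). Without the block KMS11 was called apart in SDC1 from none of U266 (adjusted p = 0.0793), MM.1s (adjusted p = 0.352) and 8226/S (adjusted p = 0.275). On 201286_at the mean log2 level was 12.89 in MM.1s and 12.86 in U266. CD28 ran in the same order, with KMS11 and 8226/S not apart (adjusted p = 0.244). Without the block MM.1s was called apart in CD28 from none of U266 (adjusted p = 0.275), KMS11 (adjusted p = 0.366) and 8226/S (adjusted p = 0.0932). FCRL5 was highest in U266, by 2.86 over MM.1s (adjusted p = 0.00159, and 0.139 without the block), with no difference called among the other 3 lines. TNFRSF13B was lowest in U266, with U266 minus KMS11 at -1.06 (adjusted p = 0.0203, and 0.150 without the block), and the other 3 lines did not differ beyond their spread.

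**Figure D4:**
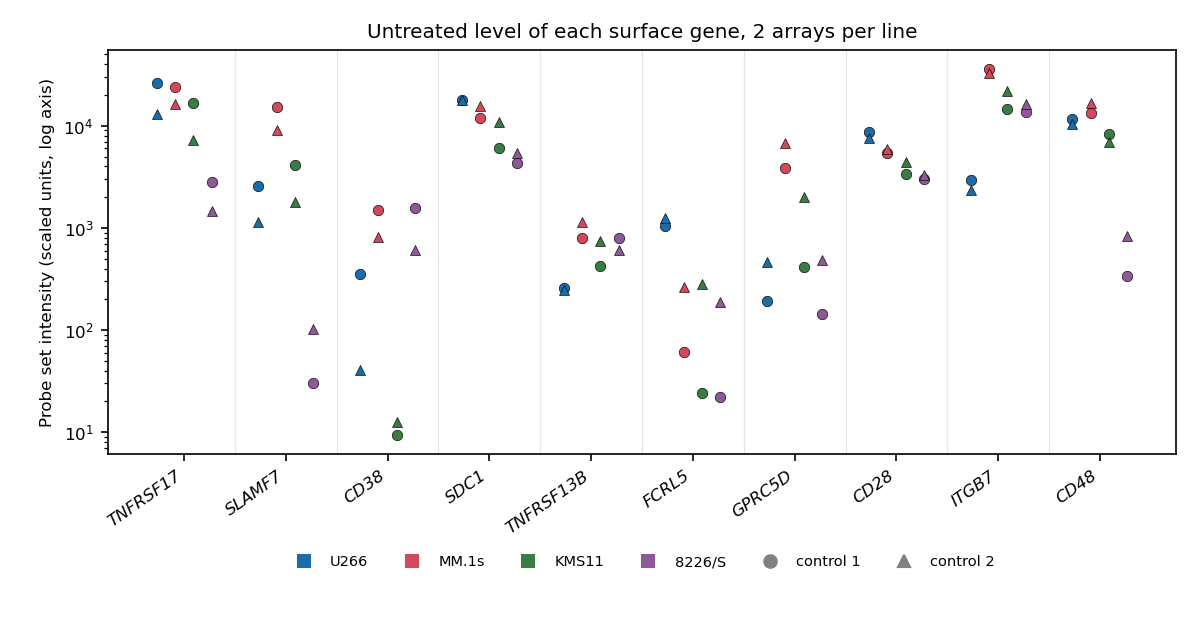
Intensity on a log axis of the brightest probe set of each gene in untreated cells, with colour for the line, circles for control 1 and triangles for control 2. SLAMF7 and CD48 are lowest in 8226/S, CD38 lies between 9.3 and 12.5 in KMS11, and FCRL5 is highest in U266, at 1054 and 1257.

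The 2 untreated arrays of a line were not interchangeable, and the shares called among these genes were near those of all genes. Between control 2 and control 1, 3 of the 10 were called higher and 2 lower, where 28.1% of all genes were called higher and 16.9% lower. With arrays centred on their median 4343 higher and 2610 lower genes became 1553 and 5659, and after quantile normalization 2512 and 2458. The median difference of all genes was 0.21, -0.32 and 0.02 in these 3 settings. FCRL5 was higher in control 2 by 1.64 (adjusted p = 0.00430). Its control 1 was below the array median in MM.1s, KMS11 and 8226/S, at 61.5, 24.1 and 22.1, and was measured in U266 alone, where the controls were 1054 and 1257. GPRC5D was higher by 1.44 (adjusted p = 0.000605), as in KMS11, where GPRC5D had 417 and 2029. SDC1 was higher by 0.38 (adjusted p = 0.0319), a direction that turned to -0.14 with median centring. TNFRSF17 was lower in control 2, at -0.92 (adjusted p = 0.000223), in U266 at 12934 against 26134, and CD38 was lower at -1.13 (adjusted p = 0.0256), where U266 in control 2 and KMS11 in both controls were below the array median. The call of CD38 was lost without U266, without MM.1s and without 8226/S, and that of SDC1 without each line but U266. Each change in the text is taken against the control of its own set.

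The genes whose changes ran most like those of each receptor over the 20 treated arrays are given by Pearson r, as a description over arrays that share lines and controls. Those nearest TNFRSF17 were IFNAR2 (0.88), KIAA0930 (0.87) and HSD17B8 (0.85). Nearest SLAMF7 stood TRAF1 (0.91), an adaptor induced by NF-kB, DCDC2B (0.86) and LEMD2 (0.82). CD48 was most like METTL23 (0.90), COQ5 (0.88) and PAM (0.88). SDC1 was most like IGLC1 (0.91), an immunoglobulin light chain gene, TUFM (0.90) and SLC5A6 (0.89). GPRC5D was most like CALU (0.88), PCP4 (0.87) and PIGT (0.85), and ITGB7 most like ATP2A3 (0.92), IGLL3P (0.85) and HLA-C (0.84). The values were lower for TNFRSF13B, with N4BP3 (0.81), COX7B2 (0.76) and AK3 (0.76), and for CD28, with PIP (0.80), UPK3B (0.80) and CDC42SE1 (0.78). CD38 had USP37 (0.78), TMPO-AS1 (0.78) and PLOD3 (0.75), and FCRL5 had MPP2 (0.74), WDTC1 (0.73) and F5 (0.71).

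The 5 plasma cell markers that are not among the 10 genes, PRDM1, IRF4, XBP1, MZB1 and POU2AF1, were summed over the same probe sets on each array. Their sum lay between 37060 and 68821 in control 2 and between 25027 and 45499, 18792 and 31139, and 16444 and 34006 after 6, 24 and 48 h of ATO, below the control in 4 of 4 lines at each time. It lay between 37312 and 72307 in control 1, between 32401 and 50665 after 6 h of DAR, below control in 4 of 4 lines, and between 26661 and 65170 after 24 h, below it in 3. The part of this shift in the changes of the 10 genes was not tested.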

How the data were processed

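The authors deposited 1 intensity per probe set and array, made with the GCOS software per the submitters' processing notes, with no version given. The 2% trimmed mean is near 500 on each array, and no further scaling was applied. No value column was left unassigned. Intensities were transformed here to log2(value + 29). Of the probe sets, 41097 carry 1 symbol, 1801 several and 11777 none, and names were updated through Entrez identifiers for 41043. A gene was kept where it exceeded the 50th percentile of its array on at least 4 of 28 arrays. The fit in limma 3.58.1 (R 4.3.3) had a baseline for each line and control number and a term for each treatment, with 15 residual degrees of freedom and eBayes with a trend in variance. Adjustment was by Benjamini-Hochberg over 15448 genes. The baseline tests used the 8 controls. Arrays of the same line deviated together (mean correlation 0.742, lowest 0.607), so the line pairs them. Same-numbered controls also deviated together (0.530 to 0.658). The script was tested on simulated data. Precision is limited by the number of arrays.

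The 10 genes and the lists were chosen with earlier results of these data known. Named genes are the 10 members, list genes that were called, and the 3 genes with the highest Pearson r for each member. Alternatives were offsets of 1 and 100, quantile normalization, median centring, no filter, every probe set, no variance trend, leaving out each line, pooled controls, no replicate block, arrays of 1 agent, and the control number as a block. Leaving out the 8226/S array after 6 h of DAR was added after the data were seen. Sequences are RefSeq's, GRCh38.p14.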

Additional observations from a re-analysis of the deposited data

Results flagged for a closer look

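Of 50 member changes checked, 2 had 1 of the 4 lines far from the others by Dixon's test, and chance flags about 1 in 20. SLAMF7 after 24 h of ATO was at 0.0301 in U266 and between -0.89 and -0.80 in the other lines, where 8226/S was below the array median. On 219159_s_at U266 was at -0.06 and 8226/S at -0.32, and on 234306_s_at they were at -0.15 and 0.13. CD38 after 24 h of DAR was at -0.779 in U266 and between 0.03 and 0.15 in the other lines, where KMS11 was below the array median.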

How the results depend on the processing

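Of 1220 values of single genes under an alternative, 1173 stayed on their side of the threshold, 35 lost the call, 9 gained it and 3 reversed with a call in 1 of the settings. Of the 1173, 66 were changes called in neither setting whose sign differed. The 3 are differences between control 2 and control 1 with median centring, -0.14 for SDC1, -0.42 for CD28 and -0.44 for ITGB7. Without the replicate block, that is with no baseline for each line, 0 of the 10 genes were called after 6, 24 or 48 h of ATO and after 6 h of DAR, where all-gene counts fell to between 15 and 47. The call of TNFRSF17 after 6 h of ATO was lost with median centring, with no variance trend and with arrays of the agent only, which left 1 member, and the count was 1 to 2 without a line. Between 24 and 6 h of ATO it was lost with median centring and no variance trend, which left 0, and without a line the count was 0 to 1. After 48 h of ATO 2 to 5 members were called without a line, and between 24 and 6 h of DAR 0 to 1. Without a variance trend, 5 of the 10 differed between lines at baseline and 3 between the controls. Leaving out a line gave 4 to 9 at baseline and 3 to 4 between the controls. GPRC5D after 24 h of ATO gained the call at an offset of 100 and without 8226/S, and ITGB7 after 48 h with quantile normalization and without 8226/S. Leaving out the 8226/S array after 6 h of DAR changed no call among the 10 genes. The cause of these shifts was not tested.

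Counts over all genes moved by over 1.5 times in several settings. The 993 genes called after 6 h of ATO became 642 with median centring, 249 to 807 without a line and 30 without the block. After 24 h of ATO 777 became 501 with median centring, 499 without the trend, 202 to 956 without a line and 15 without the block. After 48 h of ATO 1837 became 651 to 2003 without a line and 18 without the block, and after 6 h of DAR 2043 became 1103 to 1842 and 47. After 24 h of DAR 96 became 55 with quantile normalization, 38 without the trend, 63 with arrays of the agent, 512 with pooled controls, 0 to 75 without a line and 0 without the block. Between 24 and 6 h of ATO 70 (22 higher, 48 lower) became 146 (69 and 77) with quantile normalization, 32 (5 and 27) with median centring, 19 without the trend and 4 to 82 without a line. Between 48 and 24 h of ATO 0 became 0 to 7 without a line, and between 24 and 6 h of DAR 1196 became 587 to 973. At baseline 2608 became 1231 to 2127 without a line and 8040 with the control number as a block. For line by arsenic 8 became 4 with quantile normalization, 2 without a filter, 0 without the trend and 0 to 16 without a line. With every probe set tested, 29667 in all, the counts were 1174 after 24 h and 2882 after 48 h of ATO, 4056 after 6 h and 257 after 24 h of DAR, 131 between 24 and 6 h of ATO, 2510 between 24 and 6 h of DAR, 4042 at baseline, 12403 between the controls and 5 for line by arsenic. Depth, as signal over background, limits CD38 in KMS11 and U266, SLAMF7 in 8226/S, GPRC5D in 8226/S after DAR and FCRL5 outside U266.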
